A study of Mus musculus with 8 samples.

Results

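Described here are 9 transcription factor genes of cortical projection neurons, the excitatory neurons that send axons out of a cortical area. They were chosen by symbol as Tbr1, Bcl11b, Fezf2, Cux1, Cux2, Rorb, Neurod2, Neurod6 and Tle4, and all 9 were among the 32285 genes counted. Messenger RNA of neonatal brain was sequenced in 4 ICSI-F2 libraries and 4 control libraries, all from C57BL/6 mice. ICSI-F2 neonates were males sired, by natural mating, by fathers that had been conceived through ICSI (intracytoplasmic sperm injection, the placing of a sperm inside an egg). Control neonates came from wild-type C57BL/6 parents that had mated naturally, and the labels do not state their sex. The labels name no engineered allele and no agent for either group. They give no age in days, no litters and no pooling of animals. Sample names also hold a letter of unstated meaning: F for ICSI-F2 replicates 1 and 2, G for ICSI-F2 replicates 3 and 4, A for control replicates 1 and 2, and D for control replicates 3 and 4. Each letter lies within a single group, so letter and group cannot be told apart, and nothing states that the libraries of a group are from separate litters. The p-values thus measure only the spread between these libraries.

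Neurons of the neocortex are born in sequence, deep layers first, and transcription factors that repress each other fix where their axons go. Fezf2 and Bcl11b (also called Ctip2) act in layer 5 neurons that project to the brainstem and spinal cord, Tbr1 and Tle4 in layer 6 neurons that project to the thalamus, Cux1 and Cux2 in upper layers, and Rorb in layer 4. Neurod2 and Neurod6 are bHLH factors of maturing excitatory neurons of cortex and hippocampus. Several of these genes are also used elsewhere, Bcl11b in striatal projection neurons, Rorb in the thalamus, Neurod2 in cerebellar granule cells and Cux1 in many tissues. In a homogenate of brain, fewer cells of a type and less RNA per cell cannot be told apart, and neither can cortical and other sources of the same transcript.

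Promoter sequence is shown for 3 genes: Neurod2 and Neurod6, close relatives whose levels spread differently between libraries, and Rorb, where the groups of libraries did not overlap. Each stretch is the 250 bases before a RefSeq transcript start in GRCm38.p6, the assembly of mm10, read on the gene's own minus strand, and each ends within 3 bases of the GENCODE M21 gene start. Capitals mark matches on either strand to 4 motifs bound by these factor families. They are the E-box CANNTG of bHLH factors, the CCAAT box from which Cux1 was named (CCAAT displacement protein), the half-site AGGTCA of ROR receptors and the T-box half-site GGTGTG.
Neurod2, chr11:98329646-98329895: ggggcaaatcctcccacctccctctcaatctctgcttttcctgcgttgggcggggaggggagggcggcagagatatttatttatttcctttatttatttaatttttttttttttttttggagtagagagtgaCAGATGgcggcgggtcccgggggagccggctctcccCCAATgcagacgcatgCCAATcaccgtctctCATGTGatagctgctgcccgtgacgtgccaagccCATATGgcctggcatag
Neurod6, chr6:55681264-55681513: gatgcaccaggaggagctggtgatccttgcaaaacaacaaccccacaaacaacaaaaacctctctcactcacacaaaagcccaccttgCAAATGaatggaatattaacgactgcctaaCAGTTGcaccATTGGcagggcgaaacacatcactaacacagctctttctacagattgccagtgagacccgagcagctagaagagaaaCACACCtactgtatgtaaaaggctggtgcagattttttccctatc
Rorb, chr19:19111197-19111446: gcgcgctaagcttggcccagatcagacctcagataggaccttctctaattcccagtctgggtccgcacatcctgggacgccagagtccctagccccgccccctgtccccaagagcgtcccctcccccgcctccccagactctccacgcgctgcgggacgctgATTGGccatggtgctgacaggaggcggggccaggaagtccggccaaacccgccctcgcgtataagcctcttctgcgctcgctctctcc

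The Neurod2 stretch held 3 E-boxes and 2 CCAAT boxes, and the Neurod6 stretch held 2 E-boxes, 1 CCAAT box and 1 T-box half-site. The Rorb stretch held 1 CCAAT box and was richer in G and C, at 66.0%, against 52.8% for Neurod2 and 46.0% for Neurod6. In the window nearest to the gene start, an E-box was found for 5 of the 9 genes, a CCAAT box for 4, a T-box half-site for 2 and an ROR half-site for 0. No matches to different motifs overlapped. Over all 32851 promoter windows of this length in the RefSeq table, 66.2% held an E-box, 33.8% a CCAAT box, 16.3% a T-box half-site and 14.0% an ROR half-site. Such matches describe the letters of these windows. For Tbr1, Fezf2 and Cux1 the nearest RefSeq start lay 1523, 2324 and 1509 bases from the GENCODE gene start.

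Set by level per length, Neurod6 stood highest of the 9 genes and Rorb lowest. Neurod6 averaged 82.2 ± 6.09 CPM per kilobase of exon in ICSI-F2 brains and 80.7 ± 9.68 CPM per kilobase in control brains (SD, n = 4 each), where CPM is the depth-scaled count of a gene after TMM scaling of library totals. Its range over the 8 libraries, 68.6 to 89.6 CPM per kilobase, lay clear of the next gene. Bcl11b (45.1 to 52.9 CPM per kilobase) and Neurod2 (45.5 to 51.0 CPM per kilobase) overlapped and could not be ordered. Tbr1 followed at 25.3 to 31.8, Tle4 at 22.1 to 24.4 and Cux2 at 14.8 to 16.5 CPM per kilobase, each apart from its neighbours. The lowest levels per kilobase were those of Cux1 (11.7 to 13.1), Fezf2 (8.31 to 11.9) and Rorb (7.30 to 8.64). The range of Fezf2 overlapped both of the others, but within each library Cux1 was above Fezf2 and Fezf2 above Rorb. The order rests on the summed length of all annotated exons, from 2150 bases for Neurod6 to 20024 bases for Cux1, which places genes with many isoforms low. The Cux1 locus also makes CASP, a Golgi protein, and counts per gene do not separate the products.

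**Figure D1:**
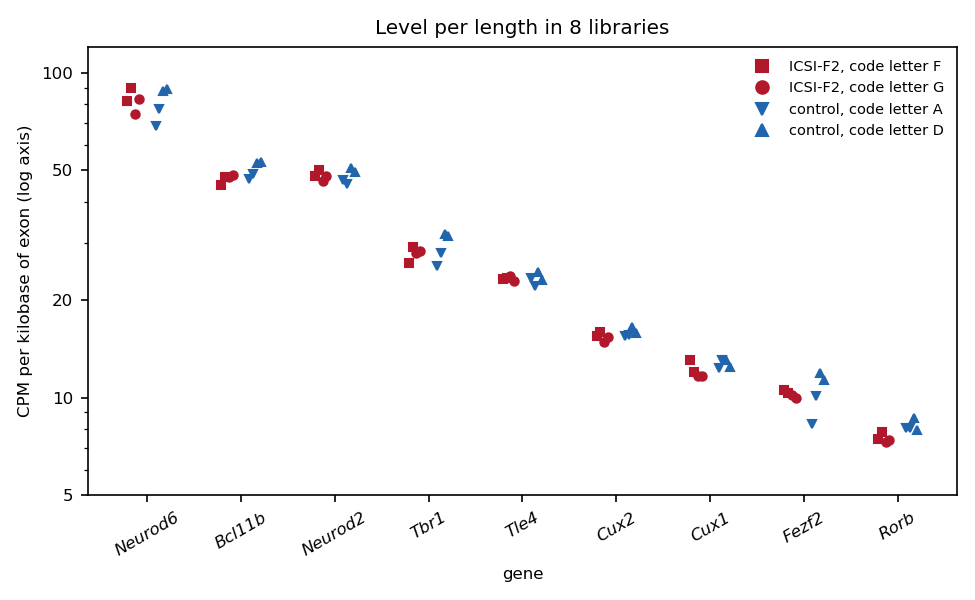
Level of each transcription factor gene in CPM per kilobase of exon (log axis), with 1 point per library, ICSI-F2 libraries in red to the left of control libraries in blue, and the marker giving the letter of the sample name. Neurod6 stands highest, at 68.6 to 89.6 CPM per kilobase, and Rorb lowest, at 7.30 to 8.64.

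Library totals ran from 12968175 to 16348777 counts for ICSI-F2 and from 13872777 to 16551511 counts for control brains, and the 9 genes had between 400 (Fezf2) and 6809 (Bcl11b) counts per library. All 9 passed the filter on low counts, among 15565 genes tested. Of their exons, only 394 bases of Cux1 (1.97%) overlapped those of another gene, Gm16599 on the opposite strand. The vesicular glutamate transporter gene Slc17a7, of cortical excitatory neurons, was detected in all libraries (35.9 to 53.3 CPM in ICSI-F2 and 40.9 to 50.5 CPM in control libraries). Before any result, some libraries stand apart in content. The 19 hindbrain and posterior Hox genes listed for this purpose, 3 of which passed the filter, summed to 134.7 and 75.2 CPM in control replicates 1 and 2 (letter A), against 1.52 to 14.0 CPM in ICSI-F2 libraries and 1.57 and 4.26 CPM in control replicates 3 and 4. Hoxa5 was at 16.3 and 5.96 CPM in the letter A controls, at 0.0766 CPM in ICSI-F2 replicate 3 and at 0 in the other 5. The liver transcript Alb was at 10.4 and 20.2 CPM in ICSI-F2 replicates 3 and 4 (letter G), at 0.061 and 0.0767 CPM in ICSI-F2 replicates 1 and 2 and at 0 in all controls. Fits without these libraries are therefore given beside the results they change.

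The comparison of ICSI-F2 with control brains asks whether brain gene expression differs in the generation after the one conceived by ICSI. By edgeR's quasi-likelihood test with Benjamini-Hochberg adjustment at 0.05, 0 of the 9 genes passed, where 0.00642% of all tested genes were called. Rorb, Bcl11b, Cux1, Tbr1, Cux2, Fezf2 and Neurod2 had log2 fold changes below 0 and Neurod6 and Tle4 above 0, from -0.13 (Rorb) to 0.029 (Neurod6), with a median of -0.037 against 0.00065 over all tested genes. At an unadjusted p under 0.05 edgeR gave 2 of the 9 genes, Rorb and Bcl11b, both lower in ICSI-F2, where the share of all tested genes was 7.3% (3.37% lower and 3.93% higher). DESeq2, fitted without the filter on low counts, gave 0 of the 9 at an adjusted p of 0.05 (0.0083% of the 24101 genes with at least 1 count). It gave the same 2 genes at an unadjusted p under 0.05 (3.51% of those 24101 genes). These shares are over a wider set of genes than those of edgeR, so the shares of the 2 tools cannot be compared directly. The same held for limma voom, where the shares of the 15565 tested genes were 0.00642% and 7.27%. The whole 95% interval of the fold change lay within 1.25-fold of no change for all 9 genes, and for 65.7% of all tested genes, so larger differences than that were outside the intervals at this depth and spread.

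**Figure D2:**
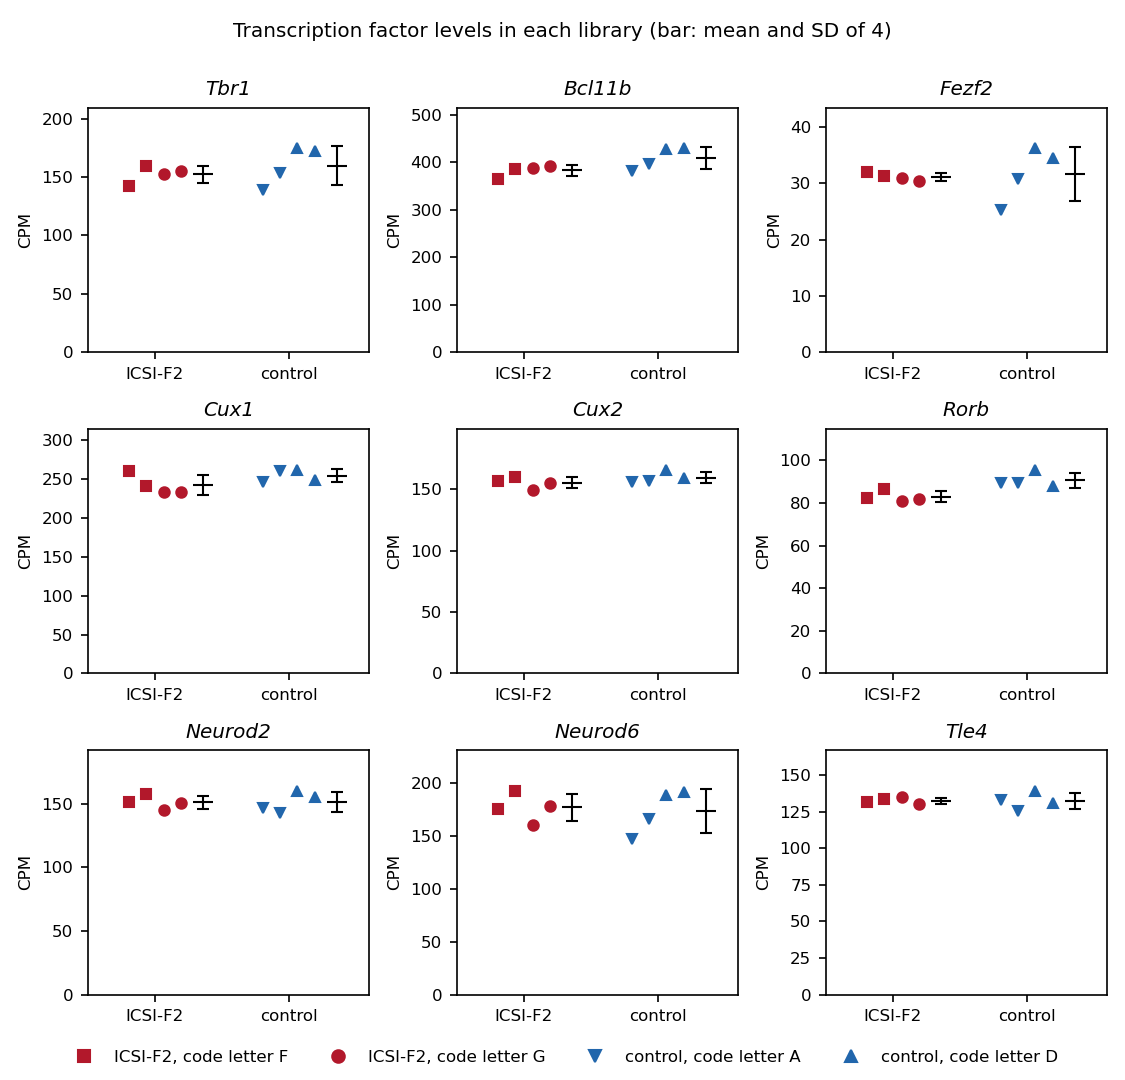
CPM of the 9 genes in each library (linear axes from 0), ICSI-F2 in red on the left and control in blue on the right, with the marker giving the letter of the sample name and the black bar the mean and SD of 4 libraries. The groups overlap for every gene except Rorb, where ICSI-F2 libraries reach 86.5 CPM and control libraries start at 87.9 CPM.

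Rorb, an orphan nuclear receptor of layer 4 neurons that receive thalamic input, was the only one of the 9 whose groups of libraries did not overlap. It stood at 82.3, 86.5, 80.8 and 81.8 CPM in ICSI-F2 replicates 1 to 4, against 89.4, 89.1, 95.6 and 87.9 CPM in control replicates 1 to 4. Each ICSI-F2 library was thus below each control library, by as little as the step between 86.5 and 87.9 CPM, and 3.97% of all tested genes were free of overlap in either direction, 2% with ICSI-F2 below. Rorb averaged 82.9 ± 2.52 CPM in ICSI-F2 and 90.5 ± 3.48 CPM in control brains (SD, n = 4 each), a log2 fold change of -0.13 (SE 0.043, 95% interval -0.22 to -0.039). The edgeR adjusted p was 0.539, so the difference did not pass. Its log2 fold change stayed between -0.15 and -0.10 in the 18 alternative fits, and was -0.15 without the letter A controls and -0.10 without the letter G libraries.

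The upper-layer homeodomain genes Cux1 and Cux2, known for their part in dendrite branching and spine formation, had smaller log2 fold changes than Rorb. Cux1 stood at 261, 241, 233 and 234 CPM in ICSI-F2 replicates 1 to 4, against 247, 261, 262 and 248 CPM in control replicates 1 to 4. The letter G libraries were the lowest of all, and ICSI-F2 replicate 1 lay within the control range. The log2 fold change of Cux1 was -0.071 (SE 0.037, 95% interval -0.15 to 0.0043, edgeR adjusted p = 0.705), and it was -0.12 without the letter F libraries and -0.018 without the letter G libraries (edgeR adjusted p = 0.544 and 0.974). Cux2 stood at 156, 160.1, 149 and 155 CPM in ICSI-F2 replicates 1 to 4, against 156, 157, 166 and 159 CPM in control replicates 1 to 4. The groups overlapped, and the log2 fold change of Cux2 was -0.037 (SE 0.036, 95% interval -0.11 to 0.036, edgeR adjusted p = 0.859).

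The subcerebral genes Bcl11b and Fezf2 differed in how far controls were apart. Bcl11b, a zinc finger factor needed for corticospinal axons to reach the cord, stood at 366, 387, 388 and 393 CPM in ICSI-F2 replicates 1 to 4, against 383, 397, 428 and 429 CPM in control replicates 1 to 4. Only control replicate 1 fell inside the ICSI-F2 range. The log2 fold change of Bcl11b was -0.095 (SE 0.036, 95% interval -0.17 to -0.022, edgeR adjusted p = 0.562). It was -0.16 without the letter A controls (edgeR adjusted p = 0.0897) and -0.025 without the letter D controls (edgeR adjusted p = 0.854). Fezf2, the selector of the layer 5 subcerebral fate that acts upstream of Bcl11b, stood at 32.0, 31.4, 31.0 and 30.4 CPM in ICSI-F2 replicates 1 to 4, against 25.3, 30.7, 36.2 and 34.5 CPM in control replicates 1 to 4. All ICSI-F2 libraries lay between control replicate 1 and the letter D controls. Fezf2 averaged 31.2 ± 0.68 CPM in ICSI-F2 and 31.7 ± 4.84 CPM in control brains (SD, n = 4 each). With a log2 fold change of -0.020 (SE 0.083, 95% interval -0.19 to 0.15, edgeR adjusted p = 0.979), its direction changed with the libraries that entered. It was -0.18 without the letter A controls, 0.16 without the letter D controls, 0.0043 without the letter G libraries, and 0.054 and 0.021 when control replicate 3 or 4 was left out.

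The layer 6 genes Tbr1 and Tle4 split in the same way. Tbr1, a T-box factor that holds Fezf2 and Bcl11b down in layer 6, stood at 142, 159.7, 153 and 155 CPM in ICSI-F2 replicates 1 to 4, against 139, 153, 175 and 173 CPM in control replicates 1 to 4. The letter D controls were above all other libraries and control replicate 1 was the lowest of all. The log2 fold change of Tbr1 was -0.068 (SE 0.073, 95% interval -0.23 to 0.096, edgeR adjusted p = 0.882). It was -0.19 without the letter A controls (edgeR adjusted p = 0.114) and 0.061 without the letter D controls (edgeR adjusted p = 0.662). Tle4, a corepressor of the Groucho family, stood at 132, 133, 135 and 130.1 CPM in ICSI-F2 replicates 1 to 4, against 133, 126, 139 and 131 CPM in control replicates 1 to 4. The ICSI-F2 libraries all lay inside the control range. Its log2 fold change was 0.0028 (SE 0.038, 95% interval -0.075 to 0.080, edgeR adjusted p = 0.992), and it ran from -0.029 to 0.034 in the alternative fits.

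The bHLH genes Neurod2 and Neurod6 had group means close to each other and unlike spreads. Neurod2, a factor for synapse formation, stood at 151, 158, 145 and 151 CPM in ICSI-F2 replicates 1 to 4, against 147, 143, 160.3 and 156 CPM in control replicates 1 to 4. Its log2 fold change was -0.0011 (SE 0.040, 95% interval -0.082 to 0.080, edgeR adjusted p = 0.999), and 0.0096 with total library size alone. For Neurod6 the levels were 175, 193, 161 and 179 CPM in ICSI-F2 replicates 1 to 4, against 147, 166, 189 and 192 CPM in control replicates 1 to 4. Both groups spread widely and overlapped. The log2 fold change of Neurod6, 0.029 (SE 0.098, 95% interval -0.21 to 0.26, edgeR adjusted p = 0.973), had the widest interval of the 9. It was -0.11 without the letter A controls, 0.18 without the letter D controls, -0.042 with control replicate 1 left out and -0.013 with ICSI-F2 replicate 2 left out.

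**Figure D3:**
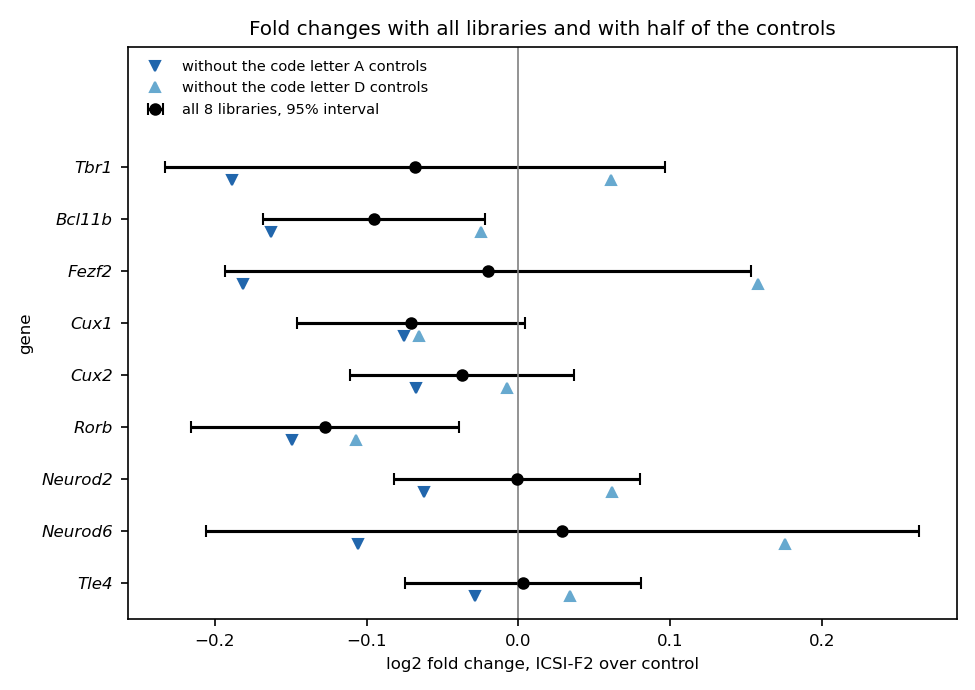
Log2 fold change of ICSI-F2 over control for each gene, with all 8 libraries (black, with the 95% interval), without the letter A controls (dark blue, pointing down) and without the letter D controls (light blue, pointing up). For Tbr1, Fezf2, Neurod2, Neurod6 and Tle4 the blue points lie on opposite sides of 0, and for Rorb, Bcl11b, Cux1 and Cux2 on the same side.

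Within the control group, letter D libraries were above letter A libraries in the mean of all 9 genes, as were 50.2% of all tested genes. The ratio of the letter D to the letter A mean was 1.26 for Fezf2, 1.21 for Neurod6, 1.19 for Tbr1, 1.10 for Bcl11b and 1.09 for Neurod2, and 1.01 to 1.04 for Cux1, Rorb, Cux2 and Tle4. For 6 of the 9 genes both letter D libraries were above both letter A libraries, as were 20.3% of all tested genes. Control replicate 3 was the highest of the 8 libraries for 7 genes and control replicate 1 the lowest for 3 (Tbr1, Fezf2 and Neurod6). Control replicate 2 was the lowest for 2 (Neurod2 and Tle4) and ICSI-F2 replicate 3 for 3 (Cux1, Cux2 and Rorb). Within ICSI-F2, letter G libraries were above letter F libraries in the mean of 2 genes, Bcl11b and Tbr1 (49.7% of all tested genes), and ratios ran from 0.922 (Neurod6) to 1.04 (Bcl11b). Both letter G libraries were below both letter F libraries for 5 of the 9 genes, as were 17.8% of all tested genes. For Cux1 the ratio of letter G to letter F (0.931) was thus farther from 1 than that of letter D to letter A (1.01). The spread over controls, as SD over mean, was 15.2% for Fezf2, 12.004% for Neurod6 and 10.6% for Tbr1, against 2.18%, 7.40% and 4.80% over ICSI-F2 libraries, while counting error of control libraries was 4.55%, 1.95% and 2.03% for these 3 genes. Over ICSI-F2 libraries the spread of Fezf2 (2.18%) and Tle4 (1.53%) was below their counting error (4.80% and 2.33%), so a spread this small was not measurable at this depth. The letter A controls, below letter D in the mean of all 9 genes, are the libraries that held the hindbrain and posterior Hox transcripts given above. For Tbr1, Fezf2 and Neurod6 only control replicate 1 was below all ICSI-F2 libraries, and control replicate 2 lay inside the ICSI-F2 range. For Neurod2 and Tle4 control replicate 2 was instead below all ICSI-F2 libraries, and control replicate 1 lay inside their range. For Bcl11b, Cux1, Cux2 and Rorb neither letter A control was below all ICSI-F2 libraries. The part of the hindbrain and Hox content in the result was not tested.

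**Figure D4:**
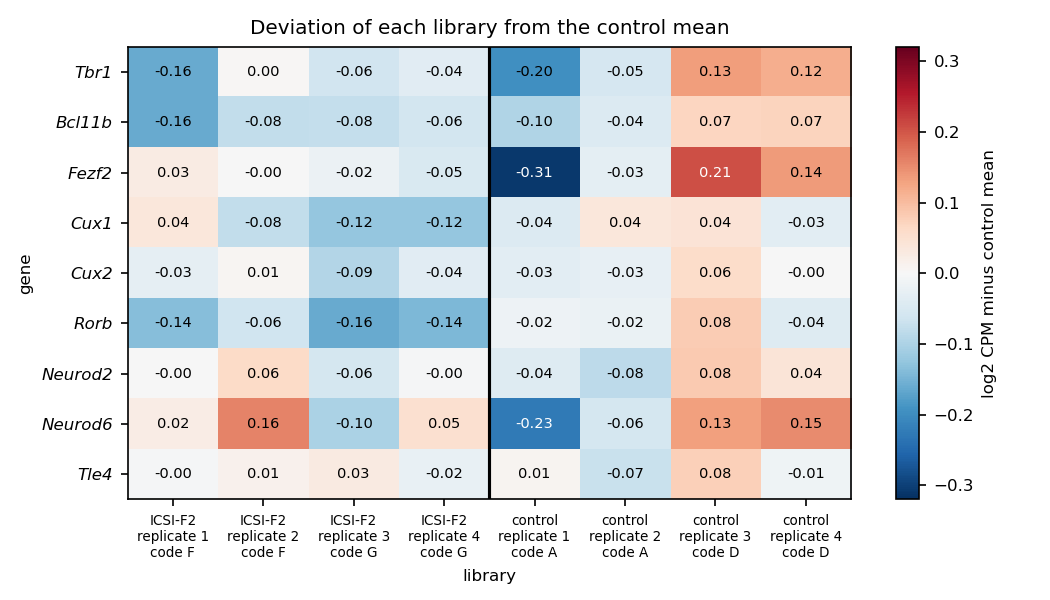
Log2 CPM of each gene (rows) in each library (columns) less the mean of the 4 control libraries, with ICSI-F2 libraries left of the line, red above and blue below the control mean. The deepest blue is Fezf2 in control replicate 1 (-0.31) and the deepest red Fezf2 in control replicate 3 (0.21), both inside the control group.

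Leaving out the letter A controls put all 9 genes below the remaining controls (49.6% of all tested genes), at a median log2 fold change of -0.11 against 0.0011 over all tested genes. Letter D was above letter A in the mean of all 9 genes. Their fold changes thus had to move down in this fit, whatever the ICSI-F2 libraries held. In that fit 0 of the 9 passed an adjusted p of 0.05 in edgeR (smallest adjusted p = 0.0897, Bcl11b), with 5 at an unadjusted p under 0.05, as were 6.45% of all tested genes. Without the letter D controls 4 of the 9 were below control (48.6% of all tested genes), at a median of 0.034, an upward move fixed by the same difference. In edgeR 2 were at an unadjusted p under 0.05 (12.2% of all tested genes), and 0 passed (smallest adjusted p = 0.291, Neurod6). Without the letter G libraries, which held liver transcripts, 5 of the 9 were below control (49.1% of all tested genes) and the median was -0.0092 (smallest edgeR adjusted p = 0.799).

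Relatives of the 9 genes gave 0 calls at an adjusted p of 0.05 in edgeR among 12 tested paralogs (0.00642% of all tested genes). At an unadjusted p under 0.05 edgeR gave 3, Tle1, Tle5 and Neurod4, where the share of all tested genes was 7.3%. Tle1, a Groucho corepressor like Tle4, averaged 94.3 ± 4.16 CPM in ICSI-F2 and 87.0 ± 1.62 CPM in control brains (SD, n = 4 each). Its log2 fold change was 0.12 (SE 0.042, edgeR adjusted p = 0.562), with no overlap of libraries (3.97% of all tested genes). Tle5, a short relative that lacks the WD repeats, had a log2 fold change of -0.071 (edgeR adjusted p = 0.658), while Tle2, Tle3 and Tle6 were at 0.048, 0.030 and 0.26 (edgeR adjusted p of 0.882 to 0.939). Neurod4, low at 1.94 ± 0.49 CPM in ICSI-F2 and 1.19 ± 0.24 CPM in control brains (SD, n = 4 each), gave 0.72 (edgeR adjusted p = 0.562). Eomes, the T-box gene of intermediate progenitors that precedes Tbr1, was at -0.15 (edgeR adjusted p = 0.72), and Bcl11a at 0.0088 (edgeR adjusted p = 0.982). Rora, Fezf1, Neurod1 and the proneural gene Neurog2 had log2 fold changes of -0.020, -0.084, -0.082 and 0.073 (edgeR adjusted p of 0.955 to 0.983).

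The other cortical lists gave 0 calls in edgeR at an adjusted p of 0.05 in either direction, and their medians ran from -0.047 to 0.023, against 0.00065 over all tested genes. Of 15 upper-layer and callosal genes 8 were below control (median log2 fold change -0.047), with Bhlhe22 at 0.084, Lhx2 at 0.080 and Ski at -0.059 (edgeR adjusted p of 0.658 to 0.745). Of 14 layer 5 and corticospinal genes 4 were below control (median 0.023), and Etv1, an ETS factor of layer 5, was lowest at -0.14 with no overlap of libraries (edgeR adjusted p = 0.54). Crym and Lum, the second of which meningeal cells also express, were at 0.14 and 0.16 (edgeR adjusted p = 0.782 and 0.903). Of 13 layer 6, corticothalamic and subplate genes 5 were below control (median 0.0081). Syt6, of the synaptotagmin family, averaged 43.0 ± 1.58 CPM in ICSI-F2 and 50.8 ± 2.43 CPM in control brains (SD, n = 4 each), a log2 fold change of -0.24 (SE 0.054, edgeR adjusted p = 0.268). With the low-count filter dropped, it passed (adjusted p = 0.0177 in edgeR, 0.207% of the 24101 genes with at least 1 count called). Tshz3 was at -0.11 and Nfia at -0.070 (edgeR adjusted p = 0.607 and 0.69). Of 12 pan-cortical genes 8 were below control (median -0.0095), among them Satb1 at -0.10 with no overlap of libraries, and Emx1 was at 0.15 (edgeR adjusted p = 0.54 and 0.785). Libraries also did not overlap for Bhlhe22, above control, and for Syt6 and Tshz3, below it. Of all tested genes 3.97% were free of overlap in either direction. Without the letter A controls 11 of 15 upper-layer, 8 of 14 layer 5 and 7 of 14 layer 6 genes were below control, and the pan-cortical median was -0.080. Without the letter G libraries 8 of 15 upper-layer, 7 of 14 layer 5, 5 of 14 layer 6 and 6 of 12 pan-cortical genes were below control.

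Lists of the other regions in which some of the 9 genes are used also gave 0 calls in edgeR at an adjusted p of 0.05. Striatal genes, the company of Bcl11b outside the cortex, were below control in 10 of 14 cases (median log2 fold change -0.075), with Meis2 at -0.11, Ppp1r1b at -0.15 and Zfp503 at -0.11 (edgeR adjusted p of 0.562 to 0.775). Hippocampal genes were below control in 8 of 10 cases (median -0.055), with Grik4 at -0.13, Ociad2 at -0.18 and Lmo3 at -0.077 (edgeR adjusted p of 0.71 to 0.735). Thalamic genes, a list that does not hold Rorb, were above control in 8 of 13 cases (median 0.042). Lef1 was at 0.22, Lhx9 at 0.18 and Tcf7l2 at 0.11 (edgeR adjusted p of 0.427 to 0.539). Lists share some genes, such as Prox1 in the thalamic and inhibitory lists, so their counts are not separate. The other 5 listed thalamic genes were below control, as Rorb was. Inhibitory neuron genes were above control in 9 of 14 cases (median 0.0065), with Sp8 at -0.33, Prox1 at 0.11 and Dlx2 at -0.14 (edgeR adjusted p of 0.607 to 0.705). Over all tested genes 49.6% were below control. Groups of libraries did not overlap for Lef1, above control, and Zfp503, below it, where 3.97% of all tested genes were free of overlap. Without the letter A controls, 9 of 14 inhibitory neuron genes and 1 of 13 thalamic genes were below control. So were 12 of 14 striatal genes (median -0.072) and 8 of 10 hippocampal genes (median -0.10). Without the letter G libraries, 8 of 14 inhibitory neuron, 8 of 14 striatal (median -0.016), 7 of 10 hippocampal (median -0.070) and 5 of 13 thalamic genes were below control.

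**Figure D5:**
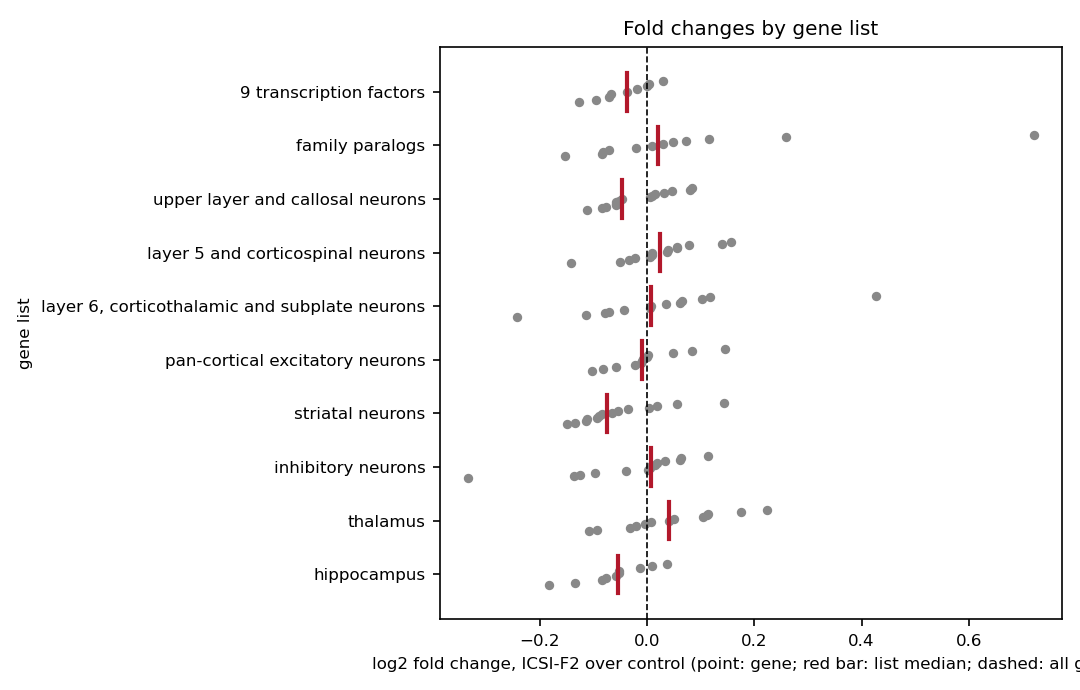
Log2 fold change of ICSI-F2 over control for the tested genes among the 9, their paralogs and the cortical and regional lists (grey points), with the list median as a red bar and the median of all tested genes as a dashed line. Over the lists drawn, medians run from -0.075 (striatal neurons) to 0.042 (thalamus), and that of the 9 transcription factors is -0.037.

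The remaining lists served to describe the content of the libraries, and none held a gene past an adjusted p of 0.05 in edgeR. Astrocyte genes were below control in 8 of 10 cases (Aldh1l1 -0.18, Slc1a2 -0.15, Agt -0.30), genes of the oligodendrocyte lineage in 9 of 9 (Mag -0.84, Cspg4 -0.15, Olig1 -0.13) and newborn neuron genes in 9 of 10 (Dcx -0.081, Tubb3 -0.070, Sox4 -0.045), all as log2 fold changes. Without the letter A controls, astrocyte genes were instead above control in 7 of 10 cases, and 5 of 9 oligodendrocyte lineage and 7 of 10 newborn neuron genes were below control. Without the letter G libraries, 10 of 10 astrocyte, 8 of 9 oligodendrocyte lineage and 6 of 10 newborn neuron genes were below control. Radial glia and proliferation genes were below control in 8 of 11 cases (Nes 0.14, Fabp7 0.085, Hes1 -0.14), and cerebellar and midbrain genes in 4 of 11 (Pax2 -1.53, Cbln1 -0.16, Gata3 0.062). These counts were 5 of 11 and 1 of 11 without the letter A controls, and 3 of 11 and 4 of 12 without the letter G libraries. Meningeal genes were above control in 10 of 10 cases (Slc22a6 0.36, Ogn 0.28, Bgn 0.20) and genes of microglia and blood in 9 of 10 (Hbb-bs 0.73, Alas2 0.45, Lyz2 0.51). Without the letter G libraries 6 of 10 meningeal genes were above control, at a median log2 fold change of 0.025 against 0.21 with all libraries. For microglia and blood 7 of 10 were above control without them, at a median of 0.078 against 0.22 with all libraries. Summed levels of the microglia and blood list were 66.1 to 76.4 CPM in ICSI-F2 libraries, against 57.6 to 63.1 CPM in controls. Groups of libraries did not overlap for Hbb-bs and Lyz2, above control, and for Mag and Dcx, below it. Of all tested genes 3.97% were free of overlap. Summed meningeal levels were 943 and 920.3 CPM in the letter G libraries, against 720.4 to 739.8 CPM in the letter F libraries and 688 to 745 CPM in controls. Col1a1, a fibroblast collagen gene, was at 155 and 149 CPM in the letter G libraries and at 103 and 109.9 CPM in the letter F libraries, against 101 to 115 CPM in controls. All 3 tested hindbrain genes were below control (among them Hoxb3 -2.93 and Slc6a5 -1.96), and without the letter A controls both of the 2 tested were above. Of the liver list 2 genes were tested (Trf 0.44, Ttr -0.0027), both also made by cells of the brain.

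The genes whose course over the 8 libraries was most like the mean course of the 9 were Plk2, Foxp1, Gucy1b1 and Gm28175. Likeness was the mean absolute difference between standardized log2 profiles, in SD units, over 12068 genes with an average of at least 5 CPM. It was 0.18 for Plk2, 0.21 for Foxp1, 0.21 for Gucy1b1 and 0.25 for Gm28175, against a median of 1.09 over all candidates. These genes were picked for small distances, so their place below the median was fixed by the choice. Among the 9 genes themselves Cux2 was nearest to their mean course (0.35) and Cux1 farthest (0.91). Foxp1, a forkhead factor of striatum and cortex, stood at 246, 246, 216 and 229 CPM in ICSI-F2 replicates 1 to 4, against 221, 234, 277 and 261 CPM in control replicates 1 to 4. It was highest in control replicate 3, as 7 of the 9 genes were, and its log2 fold change was -0.084 (edgeR adjusted p = 0.864).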

How the data were processed

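Tools named in the submitters' processing notes are HTSeq 2.0.2, HISAT2 2.2.1, cutadapt 3.4 and bcl2fastq 2.20, and the build is mm10. The deposited values are raw counts per gene, 1 column per library, from stranded mRNA libraries read for 76 bases. Neither the annotation release nor the strand setting of the counting is given in the sources used here. Library totals are in the report, and the counting error of the 9 genes per control library was 1.27% (Bcl11b) to 4.55% (Fezf2) of the count. No pair of replicates agreed within sampling noise (chi-square per gene 2.24 to 6.10), so all 8 were kept.

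Groups came from sample titles, and replicates were numbered in order of deposition. ICSI-F2 was compared with control in edgeR 4.0.16 (R 4.3.3) after filterByExpr and TMM, with robust quasi-likelihood F tests on group alone, adjusted after Benjamini and Hochberg over 15565 genes at 0.05. Standard errors and 95% intervals were derived from the F statistic. The code was tested on simulated data. Alternatives were DESeq2 1.42.0, limma 3.58.1, other scalings, no filter, and fits without single libraries or letters. CPM uses TMM-scaled totals of the tested genes, and log2 CPM has a prior count of 2. Lengths and coordinates are from GENCODE M21, where 32235 of 32285 identifiers (99.8%) were found.

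The 9 genes and all lists were chosen with earlier results of these data known. Named are the 9 genes, their paralogs, the 3 genes of each list with the smallest unadjusted p, genes that show library content, and 4 of the 5 genes most alike in profile. A few genes that this rule names are not reported here.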

Additional observations from a re-analysis of the deposited data

Results flagged for a closer look

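In groups of 4 libraries, a library was picked out when its gap to the nearest other divided by the group's range exceeded Dixon's 95% critical value, which chance passes in about 1 group in 20. None of the 9 transcription factor genes was picked out. Among 156 groups of 78 named genes 10 were, and their causes were not tested. ICSI-F2 replicate 1 stood apart for 5 genes. It was above the other 3 ICSI-F2 libraries for Neurod1 (36.6 CPM, others 22.8 to 23.9), Pax2 (6.40 CPM, others 0.30 to 0.84) and Ttr (443 CPM, others 303 to 316), and below them for Etv1 (59.2 CPM, others 66.1 to 67.1) and Emx1 (10.003 CPM, others 11.7 to 12.006). ICSI-F2 replicate 2 was above the others for Neurog2 (13.0 CPM, others 7.198 to 8.04). ICSI-F2 replicate 3 was above the others for Lum (7.58 CPM, others 3.72 to 4.27) and for Hoxa5 and Hoxb5 (0.0766 CPM each, others at 0), which is 1 count per gene. Control replicate 3 was above the other controls for Ogn (10.9 CPM, others 9.28 to 9.54).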

How the results depend on the processing

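None of the 9 transcription factor genes passed in any of the 18 alternative fits, and Rorb, Bcl11b, Cux1 and Cux2 kept their direction in all of them. The number of genes called, 1 with all libraries, was 50 with no filter on low counts, 2 with DESeq2, 1 to 9 with single libraries left out (9 without control replicate 3, 4 without control replicate 1 and 3 without control replicate 4), and 6, 180 and 26 without the letter A, D or F libraries. Scaling moved the median of all genes by at most 0.011. Of 1332 refitted log2 fold changes of 74 named genes 68 changed sign, and the causes were not tested. Without the letter A libraries the changed values were -0.11 (Neurod6), -0.029 (Tle4), -0.067 (Bcl11a), 0.062 (Rora), 0.17 (Neurod1), -0.029 (Tle6), 1.81 (Pax2), 0.0072 (Cbln1), 2.78 (Hoxb3), 1.19 (Slc6a5) and 0.081 (Agt). Without letter D they were 0.061 (Tbr1), 0.16 (Fezf2), 0.061 (Neurod2), 0.15 (Fezf1), 0.0075 (Dlx2), 0.032 (Lmo3), 0.017 (Sox4), 0.0035 (Ttr), 0.065 (Plk2), 0.041 (Foxp1), 0.034 (Gucy1b1) and 0.12 (Gm28175). Without letter F they were -0.030 (Neurod6) and -0.10 (Neurog2). Without letter G they were 0.0043 (Fezf2), 0.030 (Neurod2), 0.089 (Rora), 0.095 (Neurod1), -0.048 (Tle2), -0.085 (Lum), -0.12 (Trf), 0.13 (Ttr), -0.017 (Col1a1) and 0.0073 (Plk2). With total library size alone Neurod2 was 0.0096 and Ttr 0.0086, and Ttr was 0.00053 in limma voom and 0.00065 with the letter as a random block, at a consensus correlation of 0.028.

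With single libraries left out, log2 fold changes that changed sign ran from -0.12 to 0.054 (Fezf2), -0.028 to 0.028 (Neurod2), -0.042 to 0.078 (Neurod6), -0.021 to 0.029 (Tle4), -0.035 to 0.050 (Bcl11a), -0.18 to 0.097 (Fezf1), -0.14 to 0.044 (Rora), -0.28 to 0.043 (Neurod1), -0.15 to 0.17 (Neurog2), -0.025 to 0.11 (Tle2), -0.13 to 0.26 (Lum), -0.15 to 0.099 (Ttr), -0.086 to 0.018 (Plk2), -0.062 to 0.0026 (Gucy1b1) and -0.18 to 0.0032 (Gm28175). Outside the 9, 11 named genes passed in an alternative fit though not with all libraries and the filter. They were Syt6, Sp8, Slc1a2 and Hbb-bs with no filter, Prox1, Tcf7l2, Aldh1l1, Agt, Slc22a6 and Hbb-bs without letter D, Hbb-bs without control replicate 3, and Trf and Col1a1 without letter F. No paired analysis was possible because the replicate numbers follow the order of deposition. The fits without a letter compare 4 libraries with 2. Depth limits Fezf2 most, at 400 to 576 counts per library.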

Other observations

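Ratios between related genes within a library do not depend on the library total. Neurod6 over Neurod2 was 1.16, 1.22, 1.10 and 1.18 in ICSI-F2 replicates 1 to 4, against 1.002, 1.16, 1.18 and 1.23 in control replicates 1 to 4. Cux2 over Cux1 was 0.64 ± 0.031 in ICSI-F2 and 0.63 ± 0.018 in control brains (SD, n = 4 each). Tbr1 over Bcl11b was 0.40 ± 0.010 in ICSI-F2 and 0.39 ± 0.020 in control brains, and Fezf2 over Bcl11b was 0.082 ± 0.0043 in ICSI-F2 and 0.077 ± 0.0079 in control brains (SD, n = 4 each). Control replicate 1 had the lowest value of the 8 libraries in 3 of these 4 ratios, all but Cux2 over Cux1. The first genes of those 3 ratios, Neurod6, Tbr1 and Fezf2, were themselves lowest in that library, so the ratios are not a separate observation.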
